A study of Mus musculus with 8 samples.

Results

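The genes described here encode homologous recombination proteins, Fanconi anemia proteins and the kinases and mediators of the replication checkpoint, with the RPA subunits and Msh6. The 33 listed genes were looked up by symbol among array probe sets that carry exactly 1 gene symbol, and for each gene the probe set with the highest mean of log2(signal + 23.66) over all 8 arrays was used. Of the 33 genes, 31 had such a probe set, out of 18193 genes on the array, and 30 lay above the signal filter and were tested among 10916 genes. Xrcc2 and Rbbp8 were not analysed here. Bard1, the partner of Brca1, lay below the filter and was not tested.

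RNA came from NS5 cells, which the labels describe as mouse neural stem cells from brain at E11.5. The cells of all groups were plated with FGF2 and EGF for 24 h, rinsed, held for 4 h without growth factors and then treated for 48 h. The 4 groups were Ethanol and TGF-beta1, TGF-beta1 alone, Ethanol and FGF2, and FGF2 alone, with 2 arrays each. Ethanol was given at 400 mg/dl, and the growth factors at a dose written in the labels as 10 ng per ul. All results concern 1 cell line, with no group left free of growth factor during the treatment. The labels leave unsaid whether replicates came from separate cultures, and p-values then measure only the spread between these samples, which may be technical.

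Homologous recombination repairs broken DNA and stalled replication forks by copying the intact sister chromatid, and it works mainly in S and G2 phase, when a sister is present. Broken ends are trimmed by nucleases, the exposed strand is coated by RPA, and with the help of BRCA proteins it then invades the sister chromatid as a template. Fanconi anemia proteins repair crosslinks between the DNA strands, including those that acetaldehyde, the first product of ethanol oxidation, can form. At a stalled fork the kinase ATR, with its activator TOPBP1 and the mediator claspin, switches on CHEK1, which holds back new origins and entry into mitosis. Transcripts of many of these genes are known to be more abundant in dividing cells than in resting ones.

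The values are linear signal intensities, 1 per probe set and array. The trimmed mean signal was 500 on every array, so all arrays had been scaled to 1 target, the median ran from 50.6 to 86.5, and the number of arrays limits the precision. On 2 arrays the TGF-beta target Fn1 (fibronectin) went against the growth factor label. Fn1 read 124 on replicate 1 and 8226 on replicate 2 of Ethanol and TGF-beta1, against 3015 and 4109 with TGF-beta1 alone. It read 6828 on replicate 1 and 116 on replicate 2 of Ethanol and FGF2, against 120 and 139 with FGF2 alone. Labels were kept as given. For the ethanol comparisons the count of called genes is also given without these 2 arrays, the first replicates of both ethanol groups. Counts of genes whose groups did not overlap, and of 2-fold changes, are given with these arrays only. The ratio of the 3' to the 5' Gapdh control probe sets was 1.93 and 2.06 in Ethanol and TGF-beta1, 1.70 and 2.20 in TGF-beta1, 3.33 and 3.48 in Ethanol and FGF2, and 1.64 and 2.20 in FGF2. The part of this higher ratio in Ethanol and FGF2 in the results below was not tested. Of 10 neural stem cell markers on the array 9 passed the signal filter, with Sox2 between 6018 and 12161 and Fabp7 between 14386 and 36790, while Prom1, at 6.15 to 55.5, did not. The same filter was passed by 6 of 6 astrocyte, 7 of 10 neuron, 4 of 7 mesenchymal and fibroblast, 1 of 5 oligodendrocyte, 1 of 6 microglial and 0 of 6 endothelial markers.

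Ethanol was first compared with its absence as the average of the ethanol effects in TGF-beta1 and in FGF2. Of the 30 tested genes, 11 fell and 0 rose, where 1.8% of all tested genes fell and 0.183% rose (limma, Benjamini-Hochberg adjusted p under 0.05 over 10916 genes). Exo1, Clspn, Chek1 and Brca1 had the lowest adjusted p, followed by Rad54l, Rad51ap1, Rpa2, Fancb, Fancd2, Rad54b and Topbp1. All 30 log2 fold changes were below 0, as were 46.0% of those of all genes, and their median was -0.71, where that of all genes was 0.03. At least 2-fold lower were 11 of the 30, against 2.42% of all genes. In 17 of the 30 all 4 ethanol arrays lay below all 4 arrays without ethanol, an order that 4.45% of tested genes showed. Fold changes are differences of log2(signal + 23.66), which understates the change of dim genes.

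**Figure D1:**
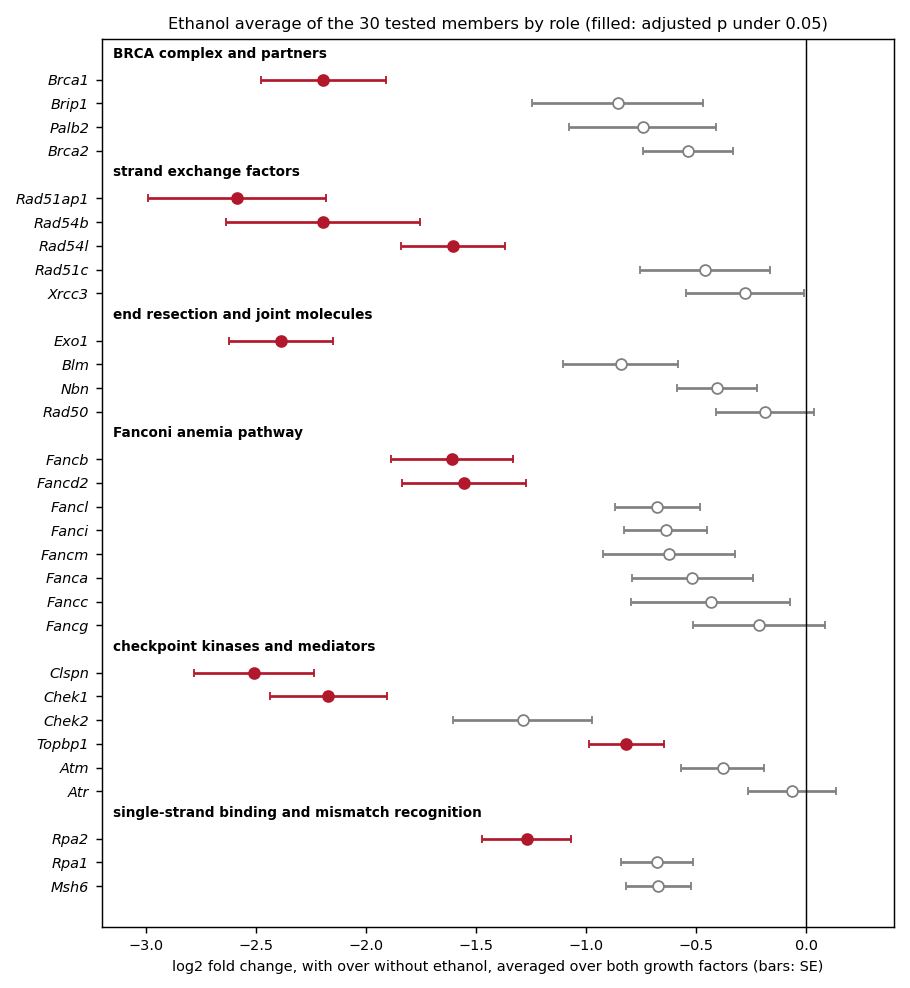
Log2 fold change with over without ethanol, averaged over both growth factors, for the 30 tested genes in their 6 role groups. Points are limma estimates, bars are standard errors, and filled points mark the 11 genes with adjusted p under 0.05. Every point lies left of 0, and Rad51ap1 lies farthest at -2.58.

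Markers of cycling cells moved in the same direction. Of 19 tested, 16 fell with ethanol in this average and 0 rose, with a median log2 fold change of -2.58. Mki67, a proliferation marker, changed by -2.67 ± 0.26 and Top2a, the topoisomerase of dividing cells, by -3.01 ± 0.30 (SE, limma adjusted p = 0.00247 each). Fewer cells of a type and less RNA per cell cannot be told apart in such RNA, and the part of cycling cells in the fall of the repair genes was not tested. Neuron markers were read as well, and the summed signal of the 10 markers was 14155 and 9369 in Ethanol and TGF-beta1, 5677 and 7323 in TGF-beta1, 9295 and 12064 in Ethanol and FGF2, and 8396 and 11955 in FGF2. Map2, a neuronal microtubule protein, made up most of that sum, with 12179 and 8107 in Ethanol and TGF-beta1, 5331 and 6588 in TGF-beta1, 7763 and 10345 in Ethanol and FGF2, and 7731 and 10231 in FGF2. Of the 7 neuron markers tested, 6 were above 0 with a median of 0.57, and 0 were called in this average by limma. Within TGF-beta1 Dcx, a cytoskeletal gene of young neurons, rose by 2.70 ± 0.52 (SE, limma adjusted p = 0.0488). Dcx read 1013 on replicate 1 of Ethanol and TGF-beta1, whose Fn1 went against the label, and 413 on replicate 2. In TGF-beta1 it read 56.5 and 109. With replicate number as a block 0 of all genes passed within TGF-beta1. Of the 10 neuron markers, 5 lay above the constant of 23.66 on all arrays, 1 lay above 100 on all arrays, and 0 lay under the constant on every array. Of 4 tested mesenchymal and fibroblast markers 0 were called by limma, with a median of 0.85. The summed signal of the 7 on the array was 428 and 1927 in Ethanol and TGF-beta1, 1269 and 1188 in TGF-beta1, 1108 and 532 in Ethanol and FGF2, and 471 and 683 in FGF2. The part of either list in the result was not tested.

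Averaged over the 30 genes, the deviation of the log2 signal from each gene's own mean was -0.61 and -0.31 in Ethanol and TGF-beta1 cells, against 0.84 and 0.71 in TGF-beta1. It was -0.55 and -0.63 in Ethanol and FGF2, against 0.43 and 0.11 in FGF2. All 4 ethanol arrays lay below all 4 others, FGF2 replicate 2 was the lowest array without ethanol, and Ethanol and TGF-beta1 replicate 2 was the highest with it. The cycling cell markers had the same lowest and highest arrays of those kinds, at 0.43 and -0.60.

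**Figure D2:**
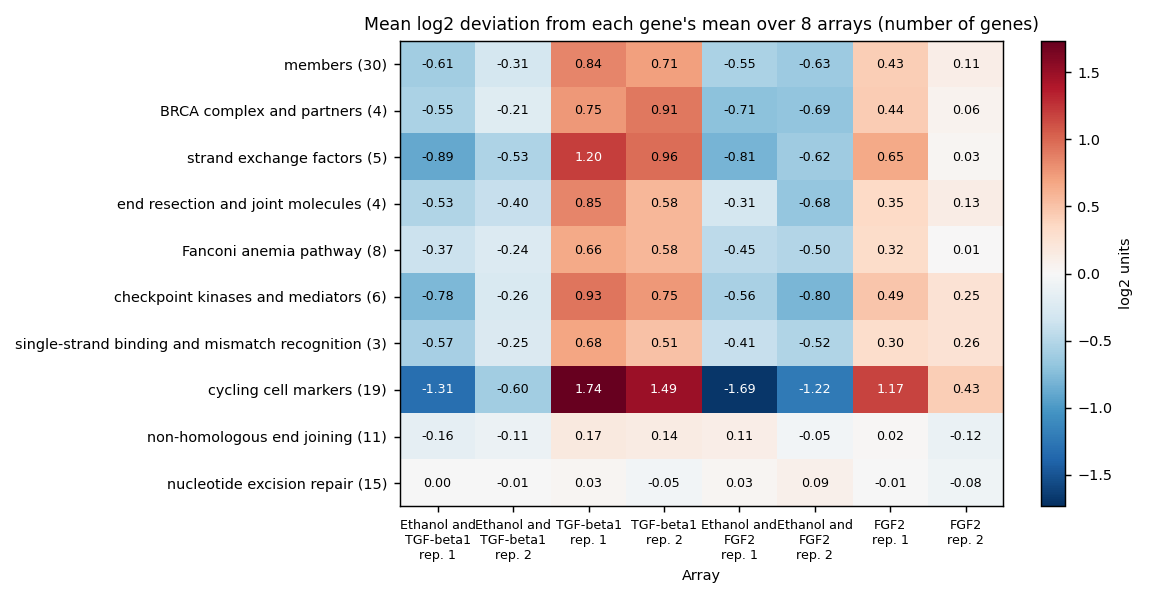
Mean deviation of log2(signal + 23.66) from each gene's mean over 8 arrays, by array (columns, replicates of the 4 groups) and gene set (rows, number of genes in brackets), with the value written in each cell. All 6 role groups are below 0 on every ethanol array and above 0 on every other array, while nucleotide excision repair genes stay between -0.08 and 0.09. Base excision repair genes, not drawn here, had the same order, at -0.39 to -0.03 with ethanol and 0.07 to 0.26 without.

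Without the 2 arrays whose Fn1 went against the label, 0 of 10916 genes passed in limma with 2 residual degrees of freedom, against 1139 at an unadjusted p under 0.05. Of the 30 genes, 19 had an unadjusted p under 0.05 there, 29 were below 0, and the median was -0.76. Leaving out 1 array at a time left 5 to 10 of the 30 called. Brca1, Exo1, Chek1 and Clspn passed in all 8 of these fits, Rad54l in 7, Rad51ap1 and Rpa2 in 5, and Rad54b, Fancb, Fancd2 and Topbp1 in 1 each.

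Among the checkpoint kinases and mediators 3 of 6 tested genes fell, with a median of -1.05. Clspn (claspin, which presents CHEK1 to ATR; chromosome 4, 126556957 to 126594533, GRCm38.p6) had signals of 72.0 and 167 in Ethanol and TGF-beta1 cells, against 822 and 677 in TGF-beta1, and of 61.7 and 65.9 in Ethanol and FGF2, against 561 and 398 in FGF2. Every ethanol array was below every array without it, and the change was -2.51 ± 0.27 (SE, limma adjusted p = 0.00258). Chek1, the kinase that carries the fork signal (chromosome 9, 36708482 to 36726658), had 81.3 and 136 in Ethanol and TGF-beta1 cells, against 990.3 and 569 in TGF-beta1, and 159 and 108 in Ethanol and FGF2, against 552 and 456 in FGF2. The groups did not overlap, and Chek1 changed by -2.17 ± 0.27 (adjusted p = 0.00364). Topbp1, the activator of ATR (chromosome 9, 103305167 to 103350428), had 541 and 649 in Ethanol and TGF-beta1 cells, against 1304 and 1386 in TGF-beta1, and 794 and 608 in Ethanol and FGF2, against 958 and 1008 in FGF2. Its groups did not overlap either, with a change of -0.82 ± 0.17 (adjusted p = 0.0484).

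The 3 other checkpoint genes did not pass. Chek2, the kinase that acts after ATM at broken DNA, had a value of -1.29 ± 0.32 (limma adjusted p = 0.0961), and its 165 on FGF2 replicate 2 lay within the range of the ethanol arrays, 84.0 to 191. Atr, the kinase that senses stalled forks, had 407 and 609.8 in Ethanol and TGF-beta1 cells, against 513 and 542 in TGF-beta1, and 485 and 401 in Ethanol and FGF2, against 423 and 496 in FGF2. These ranges overlapped throughout, and the Atr value was the smallest of the 30, at -0.07 ± 0.20 (adjusted p = 0.943). Atm, the kinase of broken ends, had a value of -0.38 ± 0.19 (adjusted p = 0.516).

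A promoter was found for 8 of the called genes. Among these, only those of Clspn and Topbp1 held the E2F letters searched, which are listed below, and they are shown for that reason. Other forms of E2F sequence were not searched. E2F factors bind such sequence in many genes of S phase. Each sequence runs 5' to 3' on the plus strand, over 250 bases before and 50 after the start given by RefSeq (GRCm38.p6), with the match in capitals. The first lies at chr4:126556730-126557029 and the second at chr9:103305077-103305376.
Clspn: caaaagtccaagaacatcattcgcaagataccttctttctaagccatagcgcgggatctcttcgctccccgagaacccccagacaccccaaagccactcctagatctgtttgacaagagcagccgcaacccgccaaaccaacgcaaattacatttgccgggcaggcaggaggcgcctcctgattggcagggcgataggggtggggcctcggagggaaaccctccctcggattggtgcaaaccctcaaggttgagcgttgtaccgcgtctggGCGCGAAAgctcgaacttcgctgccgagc
Topbp1: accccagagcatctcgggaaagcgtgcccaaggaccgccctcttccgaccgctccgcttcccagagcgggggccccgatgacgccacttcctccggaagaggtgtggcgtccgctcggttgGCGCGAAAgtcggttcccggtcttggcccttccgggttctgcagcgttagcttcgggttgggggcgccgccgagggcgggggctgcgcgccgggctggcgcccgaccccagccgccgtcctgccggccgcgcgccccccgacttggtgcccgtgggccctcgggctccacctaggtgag

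The start used is that of the promoter table, which in both genes lies inside the outer bounds given above. Counted from it, the Clspn match lay at bases 22 to 29 and the Topbp1 match at -129 to -122, so the Topbp1 match lies inside the bounds given for the gene. The letters searched, on both strands, were TTTCGCGC, TTTGGCGC, TTTCCCGC and TTTGCCGC, and promoters of the same length were found for 26 of the 31 genes. They stood in 2 of 8 promoters of genes that fell (25%) and in 5 of 17 of tested genes that did not pass (29.4%), with 4.38% of promoters of all tested genes and 2.32% of all promoters in the table. CCAAT stood in 6 of 8 (75%) and 11 of 17 (64.7%), with 39.6% of promoters of tested genes. The letters TTTGAA or TTCGAA of the cell cycle element CHR stood in 0 of 8 and 1 of 17 (5.88%), with 13.4% of promoters of tested genes. A match describes the letters and is not a site of binding.

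Among the genes of end resection and joint molecules 1 of 4 fell. This was Exo1, a nuclease that trims broken ends and also acts in mismatch repair (chromosome 1, 175880768 to 175911396). Exo1 had 104 and 117 in Ethanol and TGF-beta1 cells, against 935 and 739 in TGF-beta1, and 93.1 and 74.4 in Ethanol and FGF2, against 555 and 337 in FGF2. All 4 ethanol arrays lay far under the others, and the change was -2.39 ± 0.24 (limma adjusted p = 0.00247). Blm, a helicase that dissolves joined DNA molecules, had -0.84 ± 0.26 (adjusted p = 0.229), and its ethanol arrays, at 116 to 195, lay below the others, at 204 to 416. Rad50, part of the complex that tethers broken ends, had -0.19 ± 0.22 (adjusted p = 0.85) with overlapping groups. Nbn, another subunit of that complex, had -0.41 ± 0.18 (adjusted p = 0.47), and its ethanol arrays, at 377 to 487, lay below the others, at 540 to 650.

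In the BRCA group 1 of 4 tested genes fell. Brca1, a ubiquitin ligase that promotes resection (chromosome 11, 101488761 to 101551955), had 113 and 249.8 in Ethanol and TGF-beta1 cells, against 965 and 715 in TGF-beta1, and 74.5 and 83.7 in Ethanol and FGF2, against 582 and 366 in FGF2. No ethanol array reached the level of an array without ethanol, and Brca1 changed by -2.19 ± 0.28 (limma adjusted p = 0.00473). Brip1, a helicase that binds BRCA1, had -0.86 ± 0.39 (adjusted p = 0.479). Its signal of 20.8 on FGF2 replicate 2 was under the constant, while the other arrays without ethanol read 115 to 167 and the ethanol arrays 30.1 to 53.5. Brca2, which acts on the exposed strand after resection, had -0.54 ± 0.20 (adjusted p = 0.361). It had 183 and 238 in Ethanol and TGF-beta1 cells, against 454 and 390.4 in TGF-beta1, and 226 and 257 in Ethanol and FGF2, against 253 and 285 in FGF2, so only the FGF2 groups overlapped. Palb2, the bridge between BRCA1 and BRCA2, had -0.74 ± 0.34 (adjusted p = 0.473). Untested Bard1 had 31.7 and 12.6 in Ethanol and TGF-beta1 cells, against 75.5 and 20.2 in TGF-beta1, and 8.49 and 8.25 in Ethanol and FGF2, against 51.2 and 6.12 in FGF2, with overlap in both pairs.

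In the group of strand exchange factors 3 of 5 tested genes fell, with a median of -1.60. Rad51ap1, which stimulates strand invasion (chromosome 6, 126923415 to 126939621), had 45.9 and 73.5 in Ethanol and TGF-beta1 cells, against 647 and 450.2 in TGF-beta1, and 3.63 and 66.5 in Ethanol and FGF2, against 316 and 176 in FGF2. Its groups did not overlap, the 3.63 lay under the constant, and its change of -2.58 ± 0.41 (limma adjusted p = 0.0122) was the largest of the 30. Rad54l, a motor protein of strand invasion (chromosome 4, 116094261 to 116123700), had 90.3 and 88.7 in Ethanol and TGF-beta1 cells, against 286 and 342 in TGF-beta1, and 55.8 and 78.4 in Ethanol and FGF2, against 228 and 287 in FGF2. The ethanol arrays ran up to 90.3 and the others began at 228, a change of -1.60 ± 0.24 (adjusted p = 0.0083). Its relative Rad54b (chromosome 4, 11558920 to 11615808) had 25.6 and 60.2 in Ethanol and TGF-beta1 cells, against 544 and 394 in TGF-beta1, and 96.7 and 34.7 in Ethanol and FGF2, against 409.9 and 100.5 in FGF2. The groups were separate, but FGF2 replicate 2 lay just above Ethanol and FGF2 replicate 1, and the change was -2.20 ± 0.44 (adjusted p = 0.042).

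The other 2 strand exchange genes did not pass. Rad51c, a subunit of complexes that assist strand exchange, had 147 and 187 in Ethanol and TGF-beta1 cells, against 388 and 405 in TGF-beta1, and 199 and 215 in Ethanol and FGF2, against 283 and 104 in FGF2. The TGF-beta1 groups were apart and the FGF2 groups overlapped, with an average of -0.46 ± 0.30 (limma adjusted p = 0.648). Xrcc3, its partner in one of these complexes, had -0.28 ± 0.27 (adjusted p = 0.798).

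**Figure D3:**
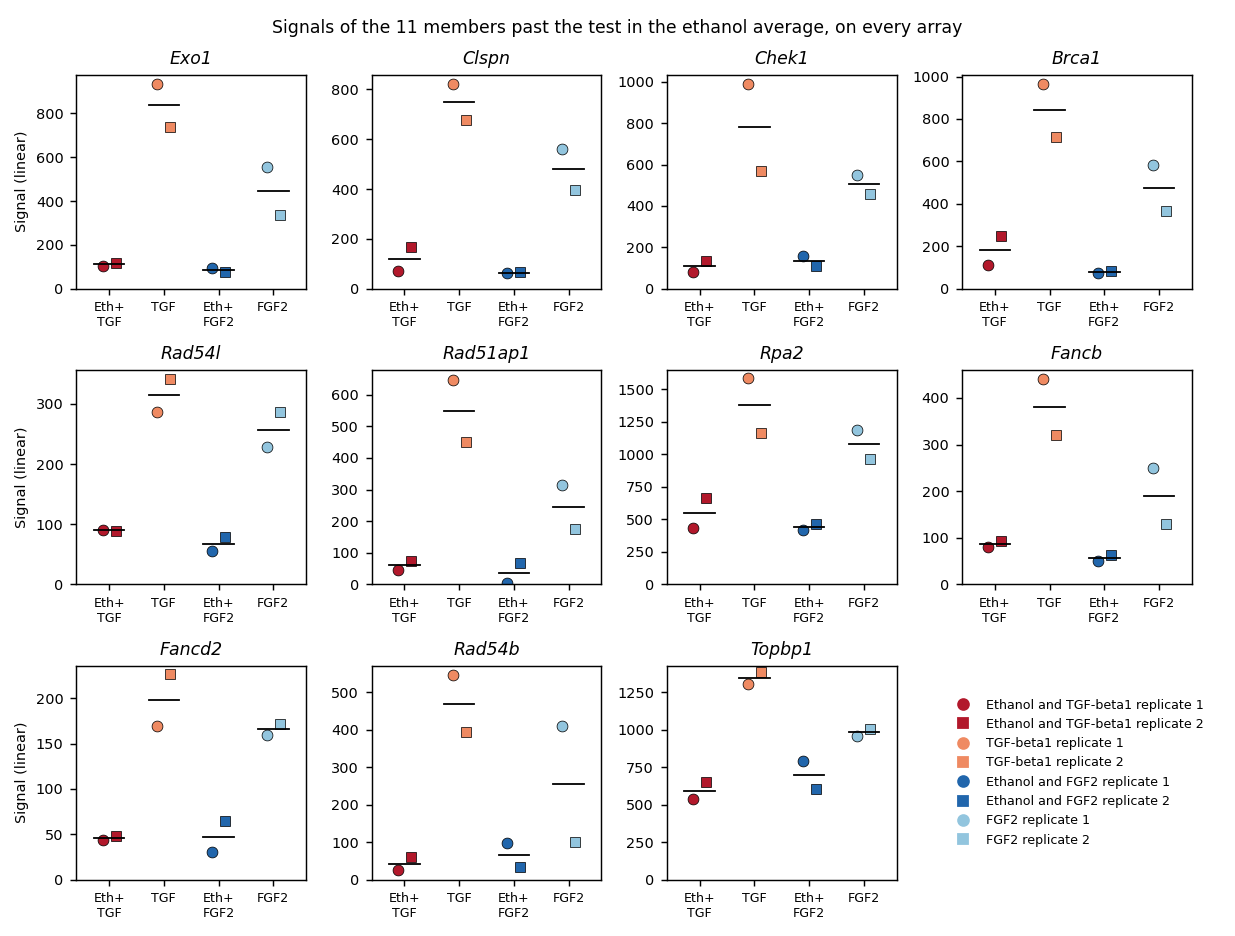
Linear signal of the 11 genes that fell with ethanol, 1 panel a gene, with 1 point for each of the 2 arrays in each of the 4 groups and a line at their mean. In every panel the 4 ethanol points lie below the 4 points without ethanol, and the gap is narrowest in Rad54b, at 96.7 against 100.5.

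Of the 8 Fanconi anemia genes 2 fell, with a median of -0.63. Fancb, part of the core complex that adds ubiquitin (chromosome X, 164980480 to 164997272), had 78.9 and 93.1 in Ethanol and TGF-beta1 cells, against 440.5 and 319 in TGF-beta1, and 50.7 and 62.6 in Ethanol and FGF2, against 249.6 and 129 in FGF2. The groups did not overlap, and the change was -1.61 ± 0.28 (limma adjusted p = 0.0191). A second Fancb probe set of nearly the same mean log2 signal, 7.32 against 7.35, had a log2 fold change of 0.05, so the call rests on which probe set is read. Fancd2, which receives that ubiquitin at the crosslink (chromosome 6, 113531640 to 113597020), had 44.0 and 48.4 in Ethanol and TGF-beta1 cells, against 169.6 and 226 in TGF-beta1, and 30.4 and 64.4 in Ethanol and FGF2, against 159.9 and 172 in FGF2. The ethanol arrays of Fancd2 ran up to 64.4 and the others began at 159.9, and the change was -1.55 ± 0.28 (adjusted p = 0.0241).

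The other 6 Fanconi genes lay between -0.68 and -0.21. Fancl, the ubiquitin ligase of the core complex, had -0.68 ± 0.19 (limma adjusted p = 0.173), and its ethanol arrays, at 365 to 460.2, lay below the others, at 517 to 858. Fancg, a scaffold of that complex, had -0.21 ± 0.30 (adjusted p = 0.877). It read 1406 and 1304 in Ethanol and TGF-beta1 cells, against 1959 and 1648 in TGF-beta1, and 1375 and 1167 in Ethanol and FGF2, against 2208 and 749 in FGF2. FGF2 replicate 2 was its lowest array and FGF2 replicate 1 its highest. Fanci, the partner of FANCD2, had -0.64 ± 0.19 (adjusted p = 0.192), Fancm, a DNA translocase, -0.62 ± 0.30 (adjusted p = 0.503), and the core members Fanca and Fancc -0.52 ± 0.27 and -0.44 ± 0.36 (adjusted p = 0.553 and 0.761). The ethanol arrays of Fanca, at 55.5 to 114, lay below the others, at 126 to 153.

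Of the RPA subunits and Msh6, 1 of 3 fell. Rpa2, a subunit of the protein that coats exposed strands and a substrate of the checkpoint kinases (chromosome 4, 132768360 to 132778746), had 436 and 663 in Ethanol and TGF-beta1 cells, against 1590.3 and 1162 in TGF-beta1, and 415 and 466 in Ethanol and FGF2, against 1185 and 968 in FGF2. The groups were well apart, with a change of -1.27 ± 0.20 (limma adjusted p = 0.0136). Rpa1, the subunit that holds most of the DNA contact, had 2487 and 3358 in Ethanol and TGF-beta1 cells, against 5334 and 5786 in TGF-beta1, and 3501 and 2814 in Ethanol and FGF2, against 4169 and 4249 in FGF2. Those groups did not overlap either, but the value of -0.68 ± 0.16 missed the threshold (adjusted p = 0.0915). Msh6, which recognises mismatched bases, had 1632 and 1593 in Ethanol and TGF-beta1 cells, against 2974 and 2617 in TGF-beta1, and 1725 and 1516 in Ethanol and FGF2, against 2298 and 2501 in FGF2. It had the lowest adjusted p of the genes that did not pass, 0.0613, at -0.67 ± 0.15 and with no overlap.

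Within TGF-beta1, 4 of the 30 genes fell with ethanol and 0 rose, where 1.12% of tested genes fell and 0.0733% rose. These were Exo1 at -2.68 ± 0.33 (SE, limma adjusted p = 0.0195), Chek1 at -2.58 ± 0.38 (adjusted p = 0.0218), Clspn at -2.51 ± 0.39 (adjusted p = 0.0236) and Brca1 at -2.14 ± 0.40 (adjusted p = 0.0469). With replicate number as a block 0 of the 30 and 0 of all genes passed, with a lowest adjusted p of 0.058, and with a filter at the 60th percentile these 4 genes were not tested. All 30 were below 0, as were 50.8% of all genes, with a median of -1.15, where all genes had -0.01. Both ethanol arrays lay below both TGF-beta1 arrays in 27 of the 30, against 25.7% of tested genes. The number called was 0 without Ethanol and TGF-beta1 replicate 1, without TGF-beta1 replicate 1 or without TGF-beta1 replicate 2, and 0 without both arrays of doubted label, where the median was -0.98 and 29 of the 30 were below 0.

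Within FGF2 limma called 0 of the 30 genes and 0% of all tested genes in either direction. At an unadjusted p under 0.05 there were 906 genes, 13 of the 30 among them, all lower with ethanol. The lowest adjusted p was 0.0601, in Exo1 at -2.10 ± 0.33 and Clspn at -2.51 ± 0.39, and Brca1 had -2.24 ± 0.40 (adjusted p = 0.0744). With quantile normalization these 3 genes passed. With 1 array left out, Exo1 passed without FGF2 replicate 2, and Clspn passed without Ethanol and TGF-beta1 replicate 1 and also without Ethanol and TGF-beta1 replicate 2. The median of the 30 was -0.54, where all genes had 0.05. Below 0 were 28 of the 30, against 44.5% of all genes, with Rad51c at 0.23 and Rad50 at 0.02. Both ethanol arrays lay below both FGF2 arrays in 20 of the 30, against 12.8% of tested genes. Without the arrays of doubted label the count called was also 0 and the median -0.76.

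The difference between the ethanol effects, TGF-beta1 minus FGF2, was tested directly as an interaction. Limma called 0 of the 30 genes and 0% of all genes, with a lowest adjusted p of 0.831. At an unadjusted p under 0.05 were 484 of 10916 genes and 2 of the 30. These 2 were Fanci at -1.02 ± 0.38 and Rad51c at -1.37 ± 0.59, and a difference between growth factors was not shown for either. Fanci had 629.6 and 539.6 in Ethanol and TGF-beta1 cells, against 1229 and 1417 in TGF-beta1, and 619 and 784 in Ethanol and FGF2, against 915 and 639 in FGF2. Its groups were separate in TGF-beta1 and overlapped in FGF2. The 30 differences ran from -1.45 in Rad54b to 0.86 in Fancm, with a median of -0.40, where all genes had -0.07. Clspn, with -2.51 in each growth factor, differed by -0.01 ± 0.55 (adjusted p = 0.999). Without the arrays of doubted label the count called was again 0, and the median was -0.22 with 19 of the 30 below 0.

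**Figure D4:**
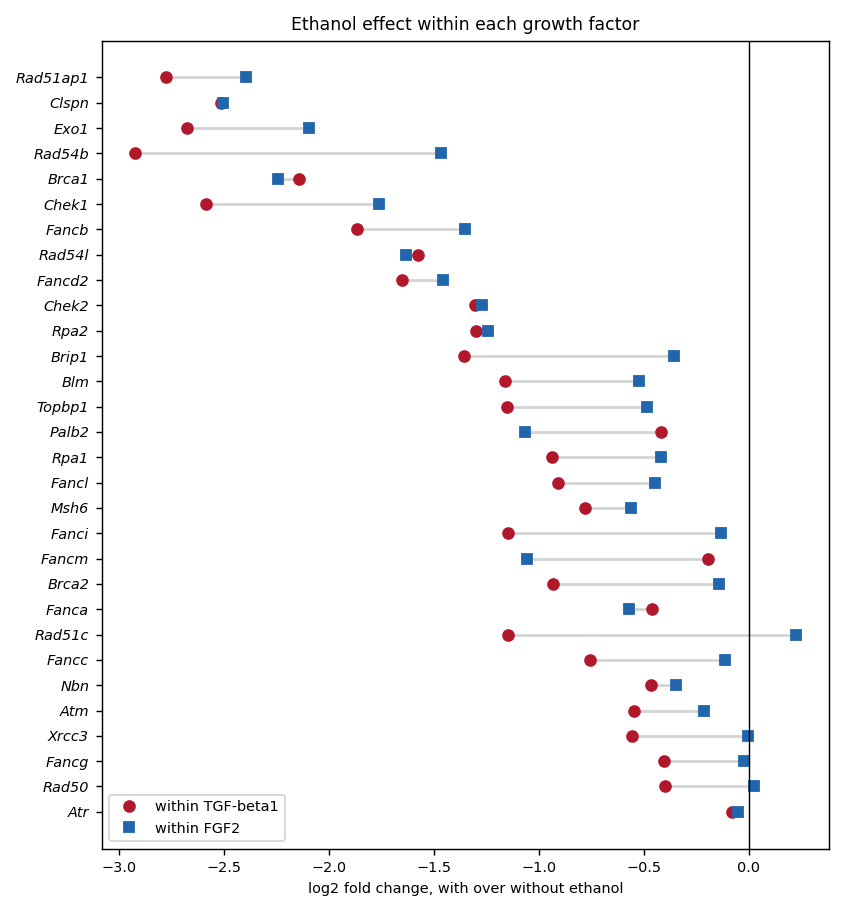
Log2 fold change with over without ethanol for the 30 tested genes, within TGF-beta1 (circles) and within FGF2 (squares), joined by a line and ordered by the average. Clspn, Brca1, Rad54l, Chek2 and Rpa2 have nearly the same value in both, and Rad51c lies on either side of 0, at -1.15 in TGF-beta1 and 0.23 in FGF2.

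TGF-beta1 was also compared with FGF2. Without ethanol 28 of the 30 genes were above 0, that is higher in TGF-beta1, while 47.5% of all genes were below 0. The median of the 30 was 0.46, where all genes had 0.02. None was called by limma, as 0% of all genes were, with 542 genes and 5 of the 30 at an unadjusted p under 0.05 and a lowest adjusted p among the 30 of 0.98. The values ran from -0.35 in Palb2 to 1.26 in Brip1. With ethanol 17 of the 30 were above 0, while 54.4% of all genes were below 0. The median of the 30 was 0.08, and the values ran from -0.39 in Xrcc3 to 0.91 in Brca1. Limma again called none of the 30 and 0% of all genes, with 288 genes and 1 of the 30 at an unadjusted p under 0.05. These comparisons use the same arrays as the ethanol comparisons, and the one with ethanol includes both arrays of doubted label; without them 7 of the 30 were below 0 and the median was 0.27.

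The 31 genes had 68 probe sets in all, and 22 genes had more than 1. Of the 46 above the signal filter, which include those of the 30 tested genes, 42 were lower with ethanol in the average. Of the 16 that were above it but not used, 12 were lower, 5 of them by at least 2-fold. The same shares over all probe sets of the array were not counted. A second Rad51c probe set had -1.68, where the one used had -0.46. The unused Chek1 probe sets above the filter had -1.47 and -1.27, where the one used had -2.17, and that of Brca1 had -0.999, where the one used had -2.19. The unused Atr probe sets had 0.41 and 0.48. With the mean of all probe sets of a gene, 194 of 10916 genes were called in the average in either direction. Of the 31 genes, 28 were then tested and 6 of these fell. Exo1, Chek1 and Clspn were among them at -1.30, -1.32 and -1.53, while Brca1, at -1.17 (limma adjusted p = 0.0562), Rad54l, Fancb and Topbp1 no longer passed and Fancd2 was not tested, its mean lying under the signal filter. Within TGF-beta1 none of the 4 called genes passed on that mean, and Rad51ap1 did.

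Genes of related pathways were read beside these. Of 30 other tested genes of homologous recombination and the Fanconi pathway, 4 fell with ethanol in the average and 0 rose, with a median of -0.17. They were Usp1, the enzyme that removes ubiquitin from FANCD2, at -1.03 ± 0.16 (limma adjusted p = 0.0125), the nuclease genes Eme1 at -1.61 ± 0.26 (adjusted p = 0.0152) and Gen1 at -1.59 ± 0.26 (adjusted p = 0.0154), and Dna2, a nuclease and helicase of end resection, at -1.37 ± 0.23 (adjusted p = 0.0154). Of 27 other checkpoint and damage signalling genes 7 fell and 0 rose, with a median of -0.28. Wee1, the kinase that restrains entry into mitosis, had -2.11 ± 0.22, and Dtl, an adaptor for destruction of licensing factors, had -2.10 ± 0.22 (adjusted p = 0.00247 each). The subunits of the kinase that fires origins, Dbf4 and Cdc7, had -1.53 ± 0.21 and -1.59 ± 0.23 (adjusted p = 0.00689 and 0.00788).

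Other repair pathways were read in the same way. Of 11 non-homologous end joining genes limma called 0, with a median of -0.12, and the end-binding Ku genes Xrcc6 and Xrcc5 had -0.37 ± 0.17 and -0.28 ± 0.21 (adjusted p = 0.488 and 0.725). Of 15 nucleotide excision repair genes 0 were called, with a median of 0.10. Uvssa, a factor of transcription-coupled repair, had 0.47 ± 0.19 (adjusted p = 0.392), and Gtf2h4, a subunit of TFIIH, -0.53 ± 0.27 (adjusted p = 0.545). Of 15 base excision repair genes 2 fell, the uracil glycosylase Ung at -1.99 ± 0.32 (adjusted p = 0.0147) and the glycosylase Neil3 at -1.67 ± 0.32 (adjusted p = 0.0315), and the median was -0.25. Of 3 other mismatch repair genes 0 were called, with Pms1 at -0.43 ± 0.22 (adjusted p = 0.534) and Msh3 at -0.11 ± 0.25 (adjusted p = 0.921). Of 17 p53 target genes 0 were called, with a median of 0.06, Btg2, an antiproliferative gene, at 0.35 ± 0.18 (adjusted p = 0.545) and the death receptor gene Fas at 0.59 ± 0.45 (adjusted p = 0.728). The difference between these lists and the 30 genes was not tested.

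**Figure D5:**
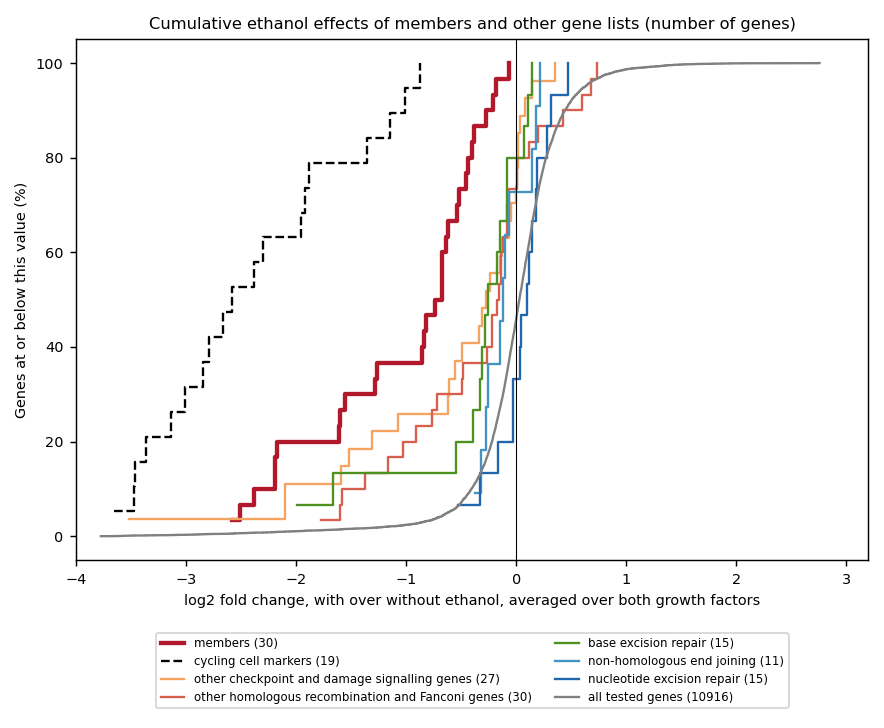
Share of genes (percent) at or below a given log2 fold change with over without ethanol, averaged over both growth factors, for the 30 tested genes, 6 other lists and all 10916 tested genes. The curve of the 30 genes, with a median of -0.71, lies left of all other repair lists over most of its course and right of the cycling cell markers, with a median of -2.58.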

How the data were processed

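RNA of 8 NS5 samples in 4 groups of 2 was measured on Affymetrix mouse arrays. The deposited values are linear signal intensities, which the authors made with MAS5 and GCOS, per the submitters' processing notes, with versions not given in the sources used here. The 2% trimmed mean was 500 on each array, and no detection calls were used. Of 45101 probe sets, 64 were controls, 34945 had 1 symbol, 932 had several and 9160 had none in GEO's platform annotation, which can be old, and only those with 1 symbol were used. Positions and promoters came from RefSeq (GRCm38.p6), with a position for all 31 genes on the array.

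A constant of 23.66, the 25th percentile of the deposited signals, was added before taking log2, without renormalizing. Genes were tested if their mean log2 value reached the 40th percentile (6.40). Limma 3.58.1 in R 4.3.3 fitted 4 group means to the 8 arrays with a trended prior (4 residual and 4.93 prior degrees of freedom), in 6 comparisons, with two-sided p-values adjusted by Benjamini-Hochberg over all 10916 genes. The procedure was also run on simulated data with independent noise for each gene. Those data held no spread shared by an array and no doubted labels, so that run does not bear on either. Genes past the threshold are given on every array, and in each role group also those of the largest and smallest change that did not pass. Of other lists up to 4 called genes of lowest p are named, or 2 where none passed. The genes, lists and tests were chosen with earlier results of these data known. The alternatives were the constant, the filter, quantile normalization, the mean of all probe sets, no trend, the replicate block, other designs and leaving out arrays. Replicate numbers were not used as pairs in the main fit. Deviations of equal numbers correlated between -0.44, for the ethanol groups, and 0.47, for TGF-beta1 and FGF2. With 2 arrays a group these values cannot decide whether the numbers pair the samples.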

Additional observations from a re-analysis of the deposited data

How the results depend on the processing

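Counts of called genes among the 30 under other settings were as follows, all by limma at an adjusted p under 0.05. In the ethanol average (11 called) the count was 7 with a constant of 1, 1 with a filter at the 60th percentile, 6 with the mean of all probe sets, 5 to 10 with 1 array left out and 0 without both arrays of doubted label. Over all genes (217 called) it was 119 with the 60th percentile filter, 101 to 233 with 1 array left out and 0 without the doubted arrays. Within TGF-beta1 (4 called) it was 0 with the 60th percentile filter, 1 with the mean of all probe sets, 0 with the replicate block, 0 to 6 with 1 array left out and 0 without the doubted arrays. Over all genes there (130 called) it was 75, 85, 0, 0 to 162 and 0 under those settings, and 78 without the trend. Within FGF2 (0 called) it was 3 with quantile normalization and 0 to 1 with 1 array left out. Over all genes there (0 called) it was 29 with no filter, 3 with the 60th percentile filter, 54 with quantile normalization and 0 to 77 with 1 array left out, the 77 without FGF2 replicate 2. For TGF-beta1 against FGF2 it was 5 of all genes without ethanol and 2 with it once the doubted arrays were left out. With the replicate block 9 of the 30 were called in the average, and beyond the counts within TGF-beta1 it moved none by over 1.5 times. Of 6 correlations between groups' replicate deviations, 3 were below 0. Of the 30 genes 26 were below 0 in the average under each of the 20 settings that tested them, with 10 genes tested under the 60th percentile filter and 28 under the mean of all probe sets. Fancb was at 0.085 with a constant of 1 and at 0.053 with the probe set chosen without a constant, a setting added after seeing the data. Fancm was at 0.15 and Atr at 0.27 with the mean of all probe sets. With 1 array left out Fancg ran between -0.60 and 0.17, the higher one without FGF2 replicate 1, and Atr between -0.20 and 0.074, above 0 without Ethanol and TGF-beta1 replicate 1 and without Ethanol and FGF2 replicate 2 (0.00028). Atr was at 0.0089 without the doubted arrays. The filter at the 60th percentile tests fewer genes and leaving out arrays uses fewer samples; the cause of the other changes was not tested. Signals near background limit the dim genes: 3 of the 31 had an array under the constant.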
